A study of Mus musculus with 2 samples.

Results

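The genes described here are 34 genes of cholesterol synthesis, sterol efflux and lipogenesis, taken by symbol from a fixed list and all found among the 31055 genes counted. They comprise 18 sterol genes driven by SREBP, 4 targets of LXR, 4 genes of fatty acid synthesis and desaturation, 7 regulators of either system (Insig1 is counted both as a regulator and as an SREBP target), and the sterol-modifying genes Soat1 and Ch25h. The list is one of symbols, with no threshold on a value, and was drawn up with earlier results of these data known.

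Cholesterol supply in animal cells is set by opposing transcription factor systems. When sterol in the endoplasmic reticulum is low, SCAP carries SREBP-2 to the Golgi for cleavage and the released factor switches on the enzymes of the mevalonate and sterol pathway, while INSIG proteins hold SCAP back when sterol is plentiful. LXR-alpha (Nr1h3) and LXR-beta (Nr1h2) are instead activated by oxysterols and sterol intermediates and switch on export pumps such as ABCA1 and ABCG1, and macrophages, which take up the membranes of dead cells, are known for strong use of this export arm.

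The cells came from a B78ChOVA melanoma, a mouse tumour line that carries mCherry and ovalbumin, grown under the skin of the flank from a 50 µl injection in Matrigel and harvested at day 16. Live sections about 160 µm thick were marked by light with the DNA barcodes ZC1, ZC2 and ZC3 (ZipSeq), dissociated, sorted and captured with 10x Genomics droplets, which gave 1 gene expression library and 1 spatial barcode library of the same cells. There was no treatment arm and no replicate, and the sources used here do not give the host strain, the number of tumours or the tumour region behind each barcode. All comparisons are therefore between sets of cells of 1 library, and no test was possible. Every interval in parentheses is a 95% interval for counting error only, from UMIs summed over cells. It covers neither differences between the cells of a set nor differences between tumours, and the calls and overlaps below rest on it.

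The rule kept 4236 cells, each with at least 1000 gene UMIs, 500 genes and at most 10% mitochondrial UMIs, and their median depth was 23132 UMIs. Classes were gated on marker genes, none of which is among the 34, and their names end in -like. Macrophage-like cells (C1q genes, 2001 cells), cells with both C1q genes and monocyte genes (called intermediate, 420 cells), monocyte-like cells (Ly6c2 and Ccr2 without C1q, 510 cells), 38 nonclassical monocyte-like, 83 cDC2-like, 31 cDC1-like, 38 migratory dendritic cell (DC)-like, 226 CD8 T-like, 105 Treg-like, 155 other T-like, 70 NK-like and 34 melanoma-like cells gave values. The label calls the cells immune, and the fibroblast, endothelial and keratinocyte markers had a median of 0 in every one of these classes, but the melanoma-like cells carried Mlana, Pmel, Dct, Tyrp1 and Tyr at 7190 CPM (UMIs per 1000000 gene UMIs of a set of cells). Another 252 cells with both T cell and C1q genes were kept out of every class, and no doublet caller was run. The gates cut continuous scores: 308 cells lay within 25% of the C1q gate and 401 within 25% of the monocyte gate. All levels are in CPM, from UMIs summed over the cells of the set. Free RNA, measured in 68497 barcodes with 10 to 100 UMIs, is given where it bears on a value. Its share was estimated from C1q genes in CD8 T-like cells and from T cell genes in the other classes. It lay between 1.02% and 1.78% in 9 of the classes and at 9.75% in NK-like cells, whose gate admits some T cell genes. The Treg-like and other T-like cells express those genes themselves, which left no usable estimate. Shares from C1q genes were not estimated outside the CD8 T-like cells.

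The promoters of 14 of the 18 SREBP targets were at hand, and 3 are shown. Their genes were lower in macrophage-like than in monocyte-like cells, and they carry motifs for which such promoters are known. Promoters at hand of genes that differed more than Hmgcs1, such as Cyp51 and Msmo1, are not shown. Each runs 5′ to 3′ on the gene's own strand from 250 bases before to 50 bases after the transcription start, from RefSeq on GRCm38.p6: Hmgcs1 at chr13:119690101-119690400 on the plus strand, Mvd at chr8:122443373-122443672 on the minus strand and Idi1 at chr13:8885356-8885655 on the plus strand. Capitals mark CCAAT or its reverse complement ATTGG, the box bound by NF-Y, a known partner of SREBP, and in Hmgcs1 also the sterol regulatory element TCACCCCAC.
Hmgcs1: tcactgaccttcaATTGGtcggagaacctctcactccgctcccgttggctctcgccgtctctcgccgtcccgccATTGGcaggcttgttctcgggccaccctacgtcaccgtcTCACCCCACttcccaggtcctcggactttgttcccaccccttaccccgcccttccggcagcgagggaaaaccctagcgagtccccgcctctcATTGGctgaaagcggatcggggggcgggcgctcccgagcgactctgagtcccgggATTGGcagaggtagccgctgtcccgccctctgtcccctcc
Mvd: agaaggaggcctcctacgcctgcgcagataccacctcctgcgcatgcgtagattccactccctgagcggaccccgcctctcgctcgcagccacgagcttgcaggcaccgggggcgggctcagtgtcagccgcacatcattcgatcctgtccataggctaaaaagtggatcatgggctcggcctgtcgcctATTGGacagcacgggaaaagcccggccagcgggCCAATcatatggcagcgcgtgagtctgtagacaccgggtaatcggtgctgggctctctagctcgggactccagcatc
Idi1: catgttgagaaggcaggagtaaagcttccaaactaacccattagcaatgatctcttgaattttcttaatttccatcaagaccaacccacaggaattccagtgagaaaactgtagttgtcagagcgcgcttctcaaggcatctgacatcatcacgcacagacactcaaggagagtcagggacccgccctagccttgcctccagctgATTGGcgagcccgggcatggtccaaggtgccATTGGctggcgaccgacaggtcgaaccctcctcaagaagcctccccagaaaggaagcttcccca
The letters CCAAT, searched on both strands, were found in the promoters of 13 of these 14 genes, against 41.1% of 27025 genes, and the gene without them was Acat2. The sterol regulatory element, searched as TCACNCCAC on both strands, was found in Hmgcs1 alone, where it starts 137 bases before the transcription start, against 1.44% of all genes. The match to the sterol regulatory element overlaps no CCAAT match. The LXR element DR4, searched on both strands as AGGTCA, any NNNN and AGGTCA again, was found in none of the 3 LXR target promoters at hand (Abca1, Mylip and Lpcat3) and in 0.0148% of all genes, which says only that these letters are not in these windows. No promoter was at hand for Fdps, Fdft1, Sqle, Stard4 and Abcg1.

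Across the classes the sterol arm was highest in melanoma-like cells and conventional dendritic cells and lowest in NK-like, nonclassical monocyte-like and macrophage-like cells. The summed SREBP targets reached 1236 CPM (1198 to 1274) in melanoma-like, 1183 CPM (1127 to 1241) in cDC2-like and 955 CPM (891 to 1021) in cDC1-like cells. Monocyte-like cells at 753 CPM (732 to 774), migratory DC-like cells at 752 CPM (686 to 822) and Treg-like cells at 710.0 CPM (662 to 761) formed the next group, and their intervals overlapped. Single cells weigh in the migratory DC-like sum. Among its SREBP targets compared below with cDC2-like cells, the largest share from 1 cell ran from 14.3% of the UMIs (Mvk) to 77.8% (Acat2). The intermediate cells at 604 CPM (588 to 620) and the CD8 T-like cells at 597 CPM (570 to 625) also overlapped, above 544 CPM (506 to 585) in other T-like cells. Macrophage-like cells stood at 437 CPM (432 to 442) and nonclassical monocyte-like cells at 424 CPM (350.4 to 509), and both intervals met that of free RNA, at 456 CPM (434 to 479.6). NK-like cells were the lowest at 294 CPM (251 to 343).

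The export arm was highest in macrophage-like, nonclassical monocyte-like and intermediate cells, and NK-like cells were low in both arms. The summed LXR targets stood at 205 CPM (201 to 208) in macrophage-like cells, 199 CPM (149.7 to 260.0) in nonclassical monocyte-like and 158 CPM (150.0 to 166) in intermediate cells, against 99.7 CPM (92.3 to 108) in monocyte-like and 99.1 CPM (88.6 to 110.5) in melanoma-like cells. The last pair of sums was close but unlike in makeup, since the LXR targets include Lpcat3, a phospholipid enzyme and not a pump. In melanoma-like cells Lpcat3 stood at 71.4 CPM, Abca1 at 14.9 CPM and Abcg1 at 4.27 CPM. In monocyte-like cells they stood at 27.3, 7.44 and 57.2 CPM in that order of genes. The LXR sums of all lymphoid and dendritic classes lay between 32.8 and 69.9 CPM, under free RNA at 142 CPM. Expressed as UMIs of SREBP targets per UMI of LXR targets, the classes ran from 2.13 in nonclassical monocyte-like cells and 2.13 (2.09 to 2.18) in macrophage-like cells, through 3.82 (3.61 to 4.05) in intermediate and 7.55 (6.96 to 8.20) in monocyte-like cells, to 29.1 (20.1 to 43.7) in cDC1-like cells. Over the 12 classes the Pearson correlation of the log2 sums of the arms was -0.36 and Spearman's rho was -0.38, a description of classes that share a library and differ in depth.

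**Figure D1:**
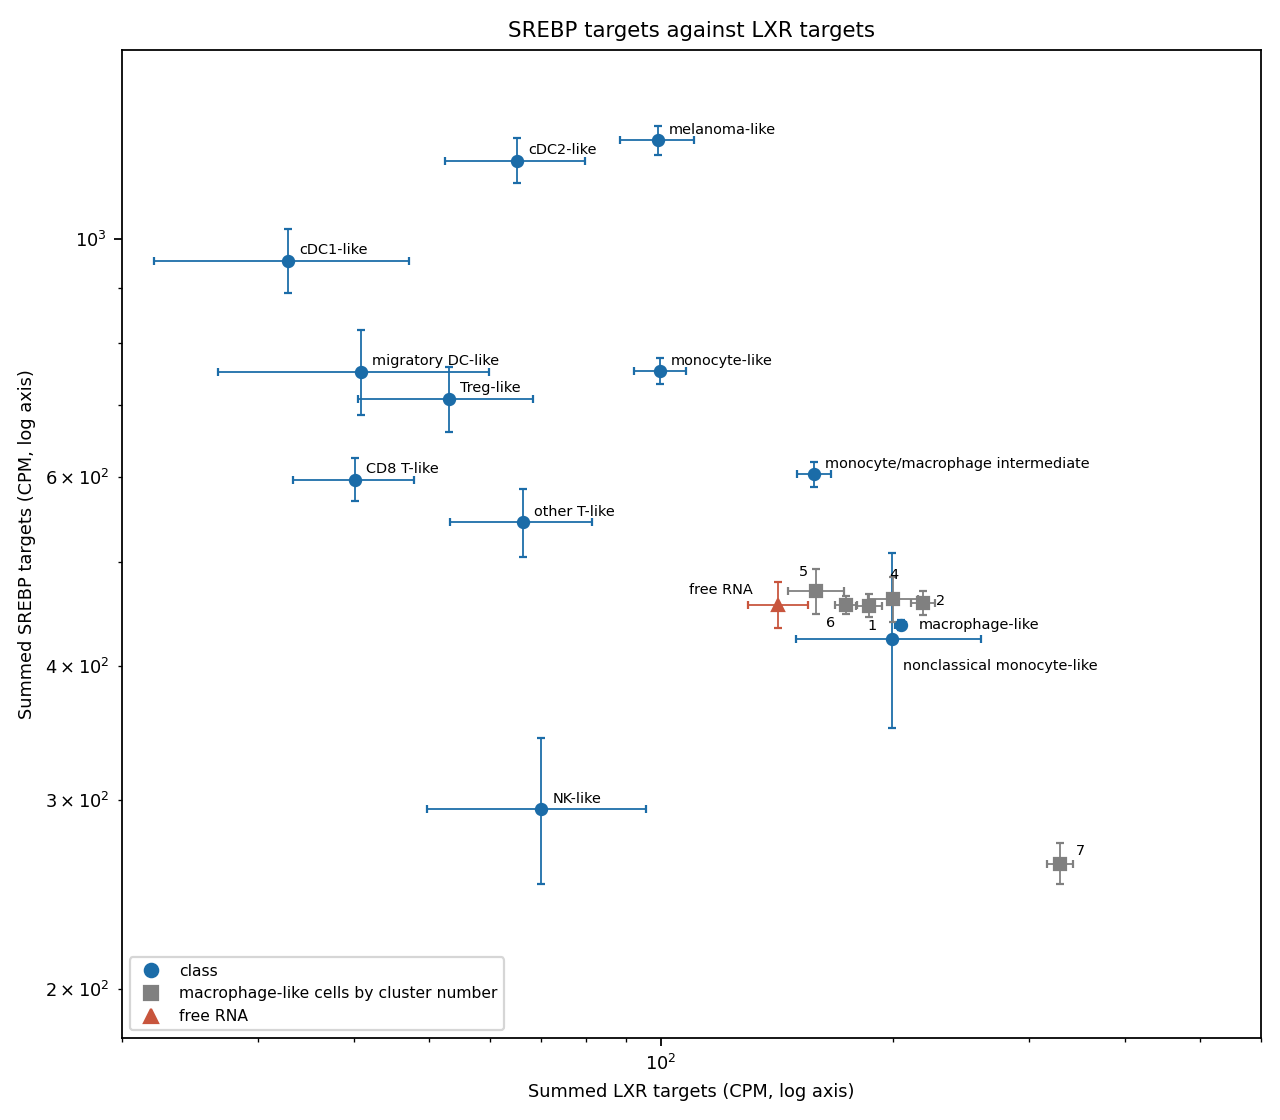
Summed SREBP targets (y axis, CPM, log scale) against summed LXR targets (x axis, CPM, log scale) in the 12 classes, in macrophage-like cells split by cluster number and in free RNA, with bars for 95% counting intervals. Macrophage-like clusters sit together between 455 and 470 CPM of SREBP targets except cluster 7, at 262 CPM of SREBP and 329 CPM of LXR targets.

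Within the sterol arm most genes followed each other from class to class. The level of a single SREBP target correlated with the sum of the other 17 at a median r of 0.77 over the 12 classes, 16 of the 18 exceeded 0.5, and the range was 0.30 for Ebp, the sterol isomerase, to 0.92 for Cyp51, the lanosterol demethylase. Insig1, the sterol-sensing brake on SCAP and itself a SREBP target, was the other gene under 0.5, at 0.42. Correlations were not computed for genes outside the fixed list, so the share of all genes that would exceed 0.5 is unknown. The count of 16 of 18 therefore has no background, and whether it is more than for other genes was not tested. Of the remaining members, Srebf2, which encodes SREBP-2, had r of 0.77 with the SREBP sum and Srebf1 0.22. With the LXR targets, Nr1h3 had r of 0.83 over the 12 classes, Soat1 0.67 and Ch25h 0.61. For each LXR target against the sum of the other 3, r was 0.87 for Abca1, 0.64 for Mylip, 0.26 for Abcg1 and 0.08 for Lpcat3.

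Single members departed from these sums in particular classes. Sqle, squalene epoxidase, a rate-limiting enzyme of the sterol branch, reached 340.0 CPM (320.3 to 360.5) in melanoma-like cells, against 68.6 CPM in cDC2-like cells, the next class. Fdps, which makes farnesyl diphosphate, was highest in cDC1-like cells at 276 CPM (243 to 313) and next in cDC2-like cells at 221 CPM. Idi1, the isopentenyl diphosphate isomerase, was highest in migratory DC-like cells at 160.1 CPM (130.5 to 194), though its interval met that of cDC2-like cells, at 120.9 CPM. Srebf2 was also highest in cDC2-like cells, at 153 CPM (133 to 174.5). Acat2, the cytosolic acetyl-CoA acetyltransferase at the head of the pathway, stayed at or below 18.1 CPM everywhere.

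Abca1, Ch25h and Nr1h3 stood high in the macrophage lineage and low in dendritic and T cell classes. Abca1 (ENSMUSG00000015243), the pump that loads cholesterol onto apolipoprotein A-I, had 3261 UMIs in macrophage-like cells, 49.4 CPM (47.7 to 51.1), and no UMI in cDC2-like, cDC1-like or Treg-like cells, where the intervals reached 2.61, 4.18 and 3.26 CPM. Ch25h (ENSMUSG00000050370), which makes 25-hydroxycholesterol, stood at 102.3 CPM (99.9 to 104.8) in macrophage-like cells and had no UMI in cDC2-like, cDC1-like or NK-like cells. Free RNA held 47.0 CPM of Abca1 and 56.1 CPM of Ch25h, so that both genes were far lower in those classes than in free RNA. In other T-like cells Ch25h stood at 18.9 CPM, but 92.3% of its 26 UMIs came from 1 cell. Nr1h3, the LXR-alpha gene, was highest in nonclassical monocyte-like cells at 84.9 CPM (53.8 to 127), then in macrophage-like cells at 42.4 CPM (40.8 to 44.0), and it had no UMI in cDC1-like, Treg-like or NK-like cells. Nr1h2, by contrast, lay between 34.4 and 62.7 CPM in all 12 classes.

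**Figure D2:**
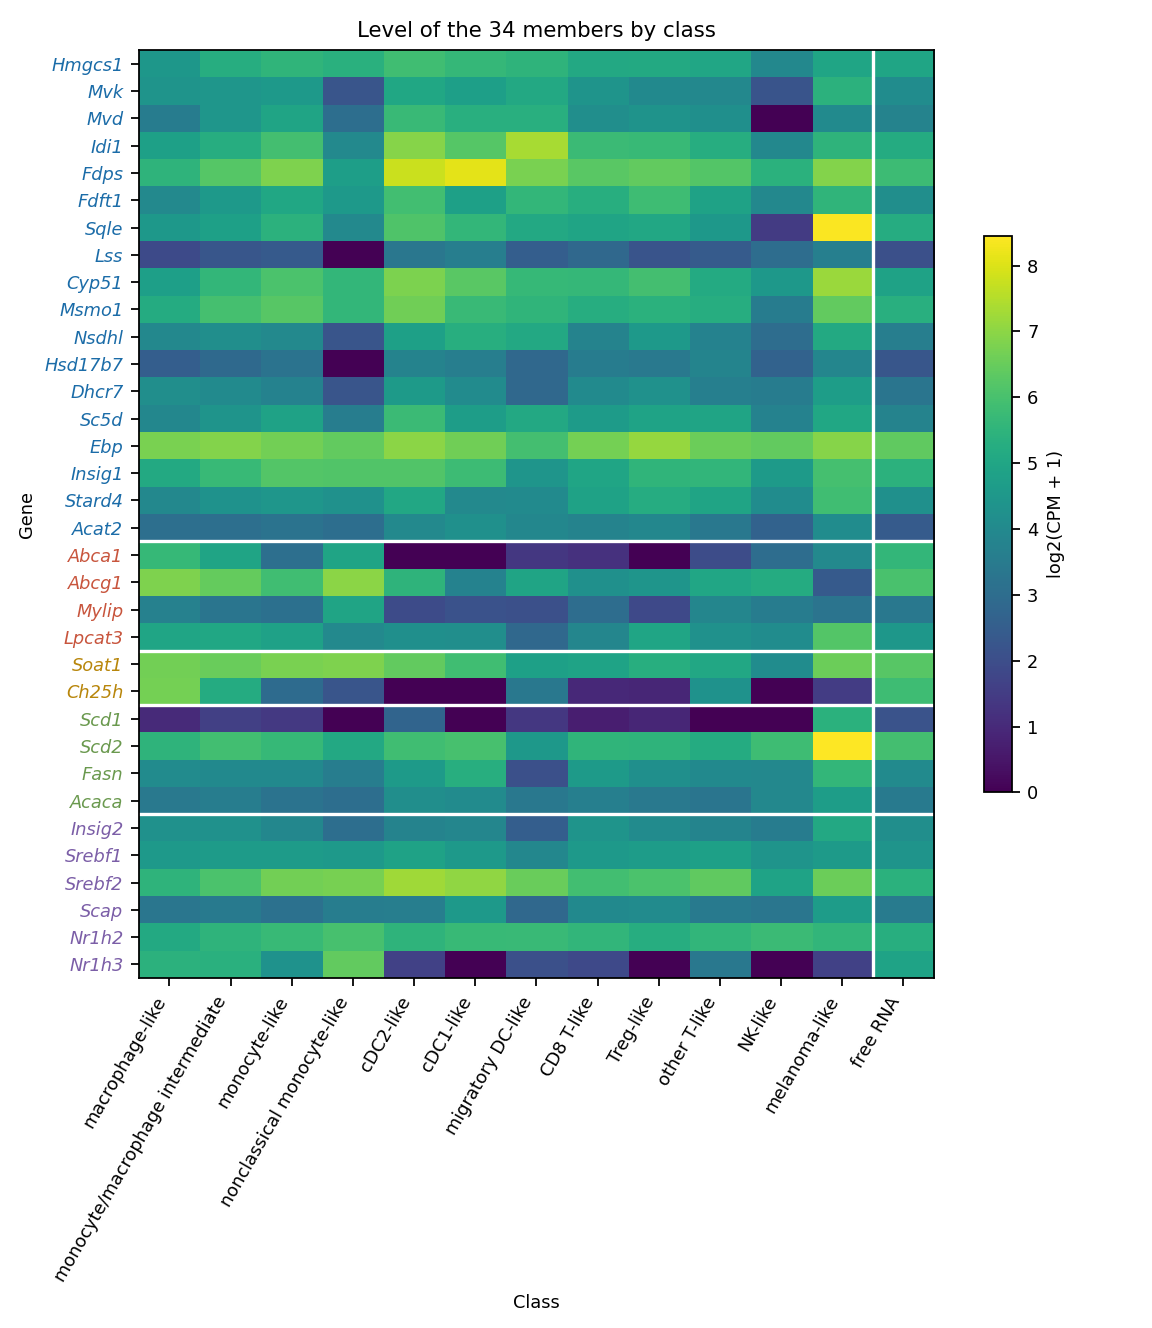
Level of each of the 34 members (rows, grouped and coloured by role) in the 12 classes and in free RNA (columns), as log2(CPM + 1). Abca1, Ch25h and Nr1h3 are bright in the macrophage lineage and dark in dendritic and lymphoid classes, and Sqle, Scd1 and Scd2 are brightest in melanoma-like cells.

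Macrophage-like cells were set against monocyte-like cells, the C1q-negative Ly6c2 cells from which tumour macrophages are generally held to derive, to see how the module differs along this lineage. The sterol arm was lower and the export arm higher in macrophage-like cells: the SREBP targets summed to 437 CPM in macrophage-like cells, against 753 CPM in monocyte-like cells, a ratio of 0.580 (0.563 to 0.598), and the LXR targets to 205 and 99.7 CPM, a ratio of 2.05 (1.90 to 2.22). A gene was counted as higher or lower when its ratio was at least 1.5-fold from 1 and its interval left out 1. By that rule 12 of 18 SREBP targets were lower and 0 higher, while 15.0% of the 11717 genes compared were lower and 23.0% higher. Of the LXR targets 3 of 4 were higher. All 34 members could be compared: 5 were higher, 13 lower and 16 neither, and their median ratio was 0.884, against 1.11 for all genes compared.

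The lower SREBP targets came from both the mevalonate and the sterol parts of the pathway. Mvd, the decarboxylase that closes the mevalonate part, had the lowest ratio: 10.7 CPM in macrophage-like cells against 29.8 CPM in monocyte-like cells, 0.360 (0.307 to 0.423). Fdps stood at 44.5 and 111.6 CPM, 0.399 (0.368 to 0.433), and Cyp51 at 26.5 and 65.9 CPM, 0.402 (0.362 to 0.447), in the same order of classes. Idi1 (0.441), Fdft1, which makes squalene (0.458), Msmo1, the C4 methyl oxidase (0.469), Hmgcs1, the HMG-CoA synthase (0.473), Insig1 (0.474), Sc5d, the lathosterol desaturase (0.498), Sqle (0.518), Hsd17b7, the 3-ketosteroid reductase (0.572), and Lss, lanosterol synthase (0.638, 0.427 to 0.987), made up the 12. The 6 that did not reach the rule were Stard4, a sterol carrier (0.687), Mvk, mevalonate kinase (0.887), Acat2 (0.887), Nsdhl (0.990), Ebp (1.07) and Dhcr7, the last reductase of the pathway (1.395, 1.11 to 1.77).

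On the export side Abca1 differed most, at 49.4 CPM in macrophage-like cells against 7.44 CPM in monocyte-like cells, a ratio of 6.64 (5.01 to 8.997). Abcg1, the pump that exports cholesterol to HDL, stood at 112.8 and 57.2 CPM, 1.97 (1.78 to 2.19), and Mylip, the ubiquitin ligase IDOL, at 12.1 and 7.74 CPM, 1.56 (1.17 to 2.11). Lpcat3, which builds polyunsaturated phospholipids, did not differ by the rule, at 30.5 and 27.3 CPM, 1.12 (0.957 to 1.31). Thus the members that were higher were the pumps and the ligase, and not the phospholipid enzyme. Thinned to 5000 UMIs a cell, 18.5% of macrophage-like against 3.02% of monocyte-like cells held a UMI of Abca1, against 49.1% and 5.88% at full depth.

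Ch25h had the widest difference of the module. Macrophage-like cells held 6753 UMIs, 102.3 CPM, and monocyte-like cells 44 UMIs, 6.68 CPM, a ratio of 15.3 (11.4 to 21.1), and 36.4% of the monocyte UMIs came from 1 cell. Thinned to 5000 UMIs, 25.4% of macrophage-like against 1.41% of monocyte-like cells held a UMI of it. Soat1, which esterifies cholesterol for storage in droplets, was at 99.2 and 107.6 CPM, a ratio of 0.922 (0.853 to 0.997). Of the regulators, Nr1h3 was higher at 42.4 and 18.8 CPM, 2.25 (1.88 to 2.72), and Srebf2 lower at 44.0 and 100 CPM, 0.440 (0.404 to 0.480), while Srebf1 (0.942), Scap (1.15), Insig2 (1.32) and Nr1h2 (0.681) did not reach the rule. The lipogenic genes did not reach it either: Scd1 and Scd2, the stearoyl-CoA desaturases, Fasn, fatty acid synthase, and Acaca, acetyl-CoA carboxylase, had ratios of 0.617 to 1.16.

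**Figure D3:**
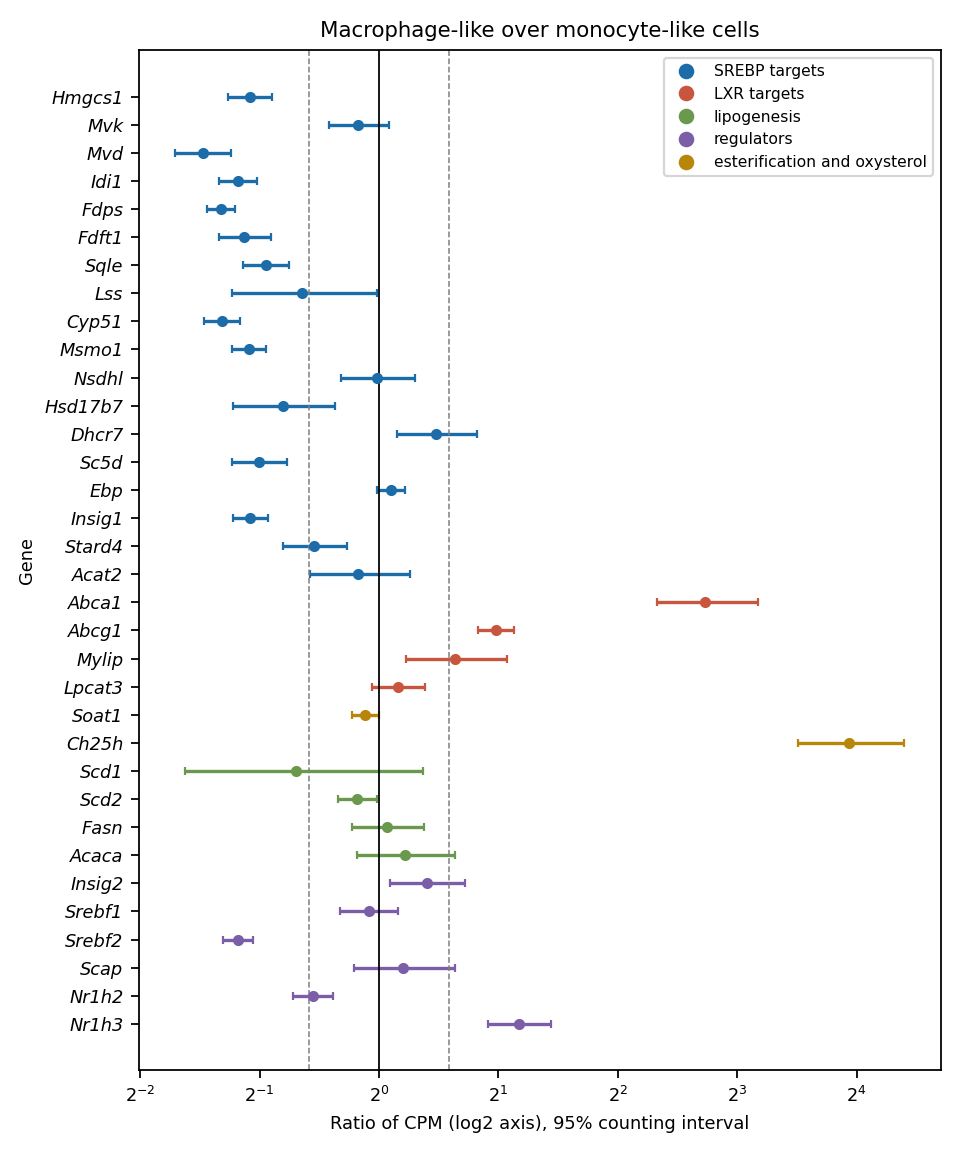
Ratio of macrophage-like over monocyte-like CPM (x axis, log2 scale) for each member (rows, coloured by role), with 95% counting intervals, a solid line at 1 and dashed lines at 1.5-fold. Most SREBP targets lie left of the dashed line, with Mvd lowest at 0.360, and Abca1, Abcg1, Mylip, Nr1h3 and Ch25h lie right of 1.5.

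Of 26 further genes of the pathways, 24 could be compared, and 7 were higher and 8 lower, beside the 23.0% higher and 15.0% lower of all genes. The highest ratios were those of Apoe, the apolipoprotein that accepts exported cholesterol (6535 CPM in macrophage-like against 1357 CPM in monocyte-like cells, 4.82) and Me1, malic enzyme (4.59, from only 7 UMIs in monocyte-like cells). Among the lowest was that of Acss2, which makes acetyl-CoA from acetate (0.303). Median depth was 31569 UMIs in macrophage-like cells, against 11148.5 UMIs in monocyte-like cells, proliferating cells made up 28.8% and 0.980% of them, and the part of these in the result was not tested. Without the proliferating cells both sums kept their direction. With Leiden clusters in place of the gates the SREBP ratio was 0.719.

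The intermediate cells, which carry both C1q and monocyte genes, lay between the others on both arms. The comparisons of intermediate cells with macrophage-like and with monocyte-like cells were added after the data were examined. For macrophage-like over intermediate cells, 6 of 18 SREBP targets were lower and 0 higher (background 9.29% lower, 8.92% higher), led by Mvd at 0.515 (0.439 to 0.608), and Abca1 at 49.4 and 29.7 CPM was higher, 1.67 (1.47 to 1.89). For intermediate over monocyte-like cells, 3 of 18 were lower and 0 higher (background 7.31% lower, 13.4% higher), namely Idi1 (0.614), Sqle (0.646) and Fdps (0.657). Nr1h3 differed at the first step only by the rule, at 39.9 CPM in intermediate and 18.8 CPM in monocyte-like cells, 2.12 (1.72 to 2.62), and was 42.4 CPM in macrophage-like cells. Ch25h differed at both steps, with 102.3 CPM in macrophage-like, 35.7 CPM in intermediate and 6.68 CPM in monocyte-like cells. Srebf2 likewise was lower at each step, at 44.0, 66.1 and 100 CPM in that order of classes.

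Proliferating macrophage-like cells, defined by Mki67, Top2a and other cycle genes, differed little from the others in the sterol arm. The SREBP targets summed to 451 CPM in 576 proliferating cells and 429 CPM in 1425 other cells, a ratio of 1.05 (1.03 to 1.08), and all 18 stayed within 1.5-fold, from 0.736 for Mvd to 1.44 for Acat2. The LXR targets summed to 180.1 and 219 CPM, 0.823 (0.793 to 0.853). Abca1 at 27.4 CPM in proliferating and 62.2 CPM in other cells, 0.441 (0.404 to 0.480), and Nr1h3 at 30.9 and 49.0 CPM, 0.631 (0.579 to 0.686), were the 2 lower members of 34, and 0 were higher, where 5.89% of all genes were lower and 8.09% higher. Abcg1 did not differ by the rule, at 111.6 and 113.4 CPM. Of the further genes, Lbr, the nuclear envelope sterol reductase, was highest at 63.1 and 19.4 CPM (3.25), followed by Tmem97 (1.44, short of the rule), and Apoe (0.577) and Acss2 (0.632, interval to 1.004) were lowest. The proliferating cells were deeper, with a median of 41089.5 UMIs against 28023 UMIs, and 153 of the 2001 cells lay within 25% of the gate. The part of depth was not tested. With a gate 2 times stricter the SREBP ratio was 1.02 and the LXR ratio 0.743.

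Split by unsupervised cluster, macrophage-like cells were uneven in the export arm and even in the sterol arm, with 1 exception. The clusters were computed without the 34 genes and the further pathway genes, and 1920 of the macrophage-like cells fell into clusters 1, 2, 4, 5, 6 and 7. In clusters 1 (led by Igkc, Htra4 and Cd300e), 2 (Pf4, Igf1, Vcam1), 4 (Cxcl10, Iigp1, Acod1), 5 (Ccnb2, Cdc20) and 6 (Prc1, Top2a) the SREBP targets summed to 455 to 469.6 CPM. In cluster 7, led by Mmp12, Hspa1b, Hspa1a, Pmp22, Hilpda, Ndrg1 and the glucose transporter gene Slc2a1, they summed to 262 CPM (251 to 273.5). The LXR targets summed to 159 to 219 CPM in the others and 329 CPM (317 to 342) in cluster 7, which made it the only one with more UMIs of LXR targets than of SREBP targets, at a ratio of 0.795 (0.750 to 0.843). Abca1 followed this pattern with a second high cluster: 125.9 CPM in cluster 7, 88.8 CPM in cluster 2, 39.9 CPM in cluster 4, and 19.4 to 22.7 CPM in clusters 1, 5 and 6. Ch25h had another order, at 194 CPM in cluster 4, 157 in cluster 1, 128 in cluster 5, 94.7 in cluster 6, 57.9 in cluster 7 and 56.0 in cluster 2.

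Cluster 7 was then set against the other 1712 macrophage-like cells, a comparison chosen after these values were seen. By the 1.5-fold rule 12 of 18 SREBP targets were lower and 0 higher, and of all 34 members 16 were lower and 7 higher, where 23.4% of the 11671 genes compared were lower and 9.0% higher. Acat2 was lowest, at 1.28 CPM in cluster 7 and 8.23 CPM in the other cells (0.156, 0.0743 to 0.289), followed by Cyp51 at 10.4 and 28.6 CPM (0.363), Idi1 at 10.7 and 28.8 CPM (0.370), Fdps at 18.6 and 48.0 CPM (0.388) and Mvk at 8.73 and 21.1 CPM (0.414). Hsd17b7 (0.480), Msmo1 (0.563), Ebp (0.576), Sqle (0.599), Fdft1 (0.643), Hmgcs1 (0.652) and Dhcr7 (0.653) were the other lower SREBP targets.

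The LXR targets split in this cluster. Abca1 stood at 125.9 CPM in cluster 7 and 39.2 CPM in the other cells (3.22, 2.98 to 3.47), Mylip at 25.8 and 10.2 CPM (2.53, 2.14 to 2.97) and Abcg1 at 161.7 and 106.2 CPM (1.52, 1.43 to 1.62). Lpcat3 went the other way, at 15.9 and 32.4 CPM (0.491, 0.406 to 0.589). Lipogenesis split as well, since the desaturase genes Scd2 (80.8 and 38.9 CPM, 2.07) and Scd1 (2.05 and 0.893 CPM, 2.30, from 16 UMIs in cluster 7) were higher, and Fasn (6.93 and 17.1 CPM, 0.405) and Acaca (4.75 and 10.3 CPM, 0.459) lower. Soat1, the esterifying enzyme, was higher at 176.6 and 88.8 CPM (1.99, 1.87 to 2.11), as was Insig2, the second brake on SCAP, at 31.1 and 16.7 CPM (1.86), and Ch25h was lower at 57.9 and 108.3 CPM (0.535). Of the further genes the highest were Nceh1, which hydrolyses cholesterol esters (2.73), and Me1 (2.51), and the lowest Lbr (0.306) and Elovl6, a fatty acid elongase (0.403). The heat shock genes Hspa1a and Hspa1b are among the leading genes of this cluster, its median depth was 24670 UMIs against 32570 UMIs in the others, and 10.0% against 31.9% of its cells were proliferating. Monocyte markers stood at 66.6 CPM in cluster 7 and 146.7 CPM in the other cells, melanoma markers at 100.6 and 60.4 CPM, and C1q genes at 14480 and 17600 CPM. With proliferating cells left out, an alternative chosen after seeing the data, 15 members were lower and 6 higher, where 21.5% of genes were lower and 8.38% higher, and the Abca1 ratio was 2.59 (2.38 to 2.81). Abcg1 (1.449) and Sqle (0.696) no longer reached the rule there. The part of heat shock, depth and these markers was not tested.

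**Figure D4:**
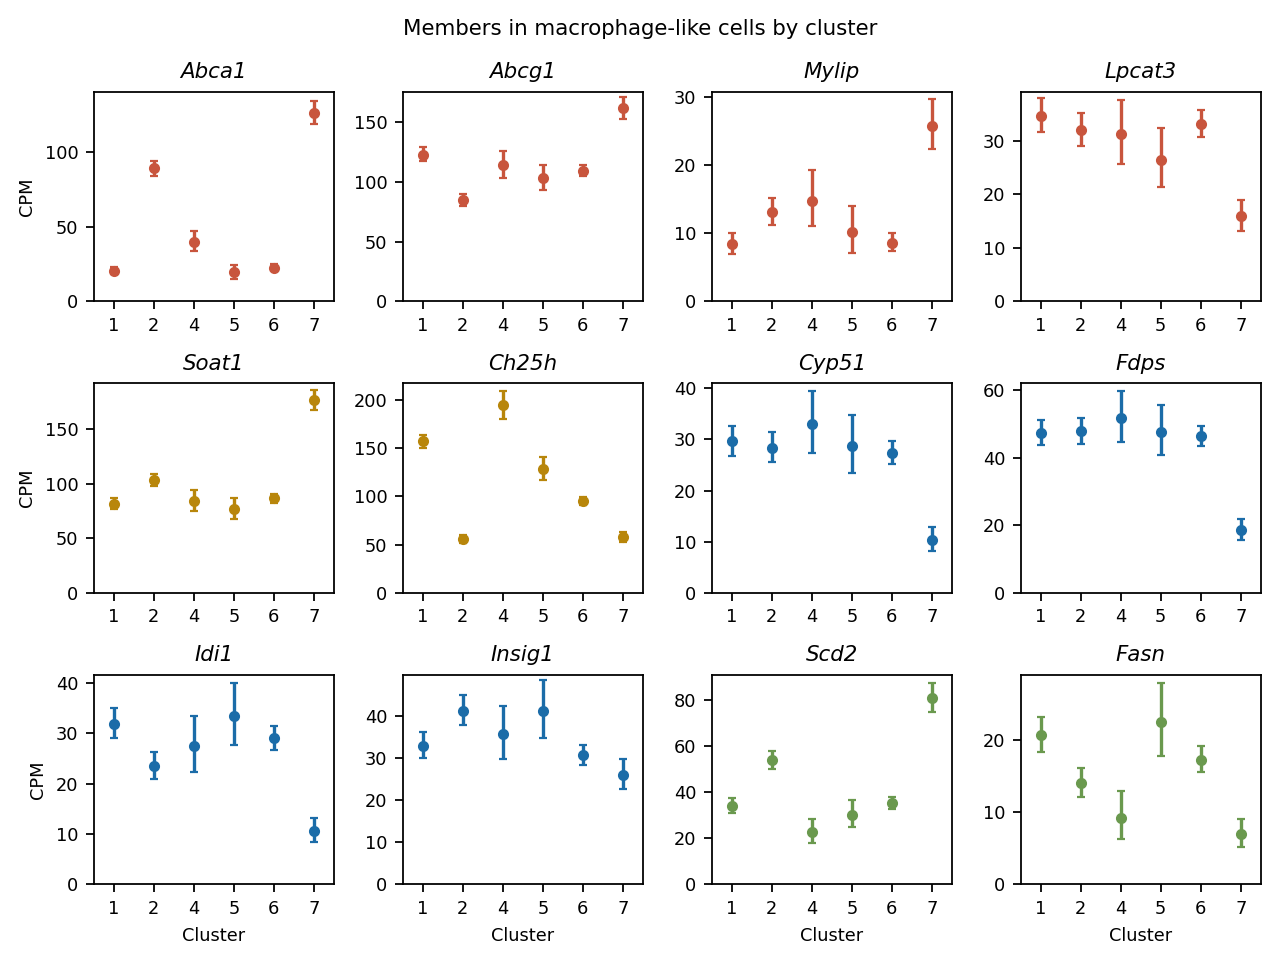
CPM (y axis, from 0) of 12 members in macrophage-like cells of clusters 1, 2, 4, 5, 6 and 7 (x axis), with 95% counting intervals. Cluster 7 is highest for Abca1 (125.9 CPM), Abcg1, Mylip, Soat1 and Scd2 and lowest for Lpcat3, Cyp51, Fdps, Idi1, Insig1 and Fasn, while Ch25h peaks in cluster 4 at 194 CPM.

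Macrophage-like cells were also compared by spatial barcode, the study's spatial axis. A barcode was taken where its share, relative to its share in free-RNA barcodes, was 1.5 times that of the next with at least 30 spatial UMIs, which gave 166 ZC1, 194 ZC2 and 619 ZC3 cells and left 1022 without one. This relative rule replaced the one first planned, which asked for 10 counts and 2 times the next barcode. The planned rule gave 3 ZC1, 6 ZC2 and 1278 ZC3 cells. Most ZC1 and ZC2 cells here thus lack a raw count led 2 times by that barcode, and the names mean enrichment over free RNA. The sterol arm was slightly higher in both ZC1 and ZC2 than in ZC3 cells. The SREBP targets summed to 460.0 CPM in ZC1 and 399 CPM in ZC3, a ratio of 1.15 (1.10 to 1.21), and to 489.6 CPM in ZC2 against the same ZC3 cells, 1.23 (1.18 to 1.28). The LXR sums did not differ beyond counting error, at 193 CPM in ZC1, 202 CPM in ZC2 and 197 CPM in ZC3, with ratios of 0.982 (0.915 to 1.05) and 1.02 (0.960 to 1.09). Within clusters they did differ, in opposite directions. In cluster 2 the LXR ratios to ZC3 were 1.37 (1.18 to 1.59) for ZC1 and 1.29 (1.13 to 1.48) for ZC2, and in cluster 6 they were 0.637 (0.531 to 0.760) and 0.845 (0.741 to 0.961). In clusters 1 (both) and 7 (ZC1) the intervals held 1. The comparisons share the ZC3 cells.

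Ch25h showed the widest difference between barcodes. It stood at 68.9 CPM (61.8 to 76.6) in ZC1, 43.2 CPM (38.1 to 48.9) in ZC2 and 148 CPM (143 to 153.5) in ZC3 macrophage-like cells, ratios to ZC3 of 0.465 (0.415 to 0.519) and 0.291. In intermediate cells ZC3 was again the highest, with 25.5 CPM (18.7 to 34.04) in ZC1, 26.5 CPM (18.5 to 36.9) in ZC2 and 65.1 CPM (55.2 to 76.3) in ZC3, while monocyte-like cells held 0, 1 and 5 UMIs. Since clusters were spread unevenly over barcodes (ZC3 held 38.2% of the barcoded cells of cluster 2 and 72.8% of those of cluster 1), the ratio was also taken within clusters. Ch25h was below ZC3 in each of the 7 comparisons with at least 20 cells on both sides, from 0.175 (ZC2 in cluster 1, 0.120 to 0.247) to 0.741 (ZC2 in cluster 2, 0.565 to 0.970).

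Abca1 and Nr1h3 ran the other way over all macrophage-like cells but not in each cluster. Abca1 was 59.5 CPM in ZC1 and 58.0 CPM in ZC2 cells, against 33.5 CPM in ZC3 cells, ratios of 1.78 (1.55 to 2.04) and 1.73 (1.52 to 1.97). Within cluster 2 it stood at 108.6 and 101.1 CPM against 65.3 CPM (1.66 and 1.55), whereas in cluster 1 it stood at 11.4 and 13.0 CPM against 20.6 CPM, ratios of 0.554 and 0.631 whose intervals held 1. Its ratios in cluster 6 (0.792 and 1.06) and cluster 7 (ZC1, 1.30) also had intervals that held 1. Nr1h3 was 57.8 CPM in ZC1 and 49.7 CPM in ZC2, against 33.5 CPM in ZC3 cells, ratios of 1.73 (1.502 to 1.98) and 1.48 (1.29 to 1.70), the second just short of the rule. Within cluster 2 its ratios were 1.91 (1.45 to 2.51) and 1.44 (1.10 to 1.89), and for ZC2 in cluster 6 it was 1.49 (1.12 to 1.96). Intervals held 1 for ZC1 in cluster 6 (1.18), for cluster 1 (0.851 and 1.16) and for ZC1 in cluster 7 (1.09). In intermediate cells Abca1 stood at 47.1 CPM (37.7 to 58.3) in ZC1, 22.8 CPM (15.4 to 32.5) in ZC2 and 23.8 CPM (18.0 to 31.0) in ZC3, and there ZC2 overlapped ZC3. Nr1h3 overlapped between barcodes in intermediate cells, at 41.6, 28.1 and 33.6 CPM, and in monocyte-like cells, at 16.4, 13.5 and 19.2 CPM, in the same order of barcodes.

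By the rule, 4 of 33 members compared were higher and 1 lower in ZC1 (background 4.38% higher, 2.16% lower), and 3 of 33 were higher and 1 lower in ZC2 (background 4.49% higher, 2.60% lower). Beside Abca1 and Nr1h3, the higher members in ZC1 were Mvd at 14.5 and 8.88 CPM (1.64, 1.23 to 2.15) and Lss at 3.98 and 2.24 CPM (1.78, 1.001 to 3.04). In ZC2 they were Mvd at 13.6 and 8.88 CPM (1.53) and Cyp51 at 35.3 and 23.4 CPM (1.51, 1.28 to 1.78). Of the further genes, Fads1, a fatty acid desaturase (1.74), and Apoe (1.54) were highest in ZC1 and Elovl6 (0.660) and Me1 (0.804) lowest, with intervals of the last pair holding 1. In ZC2 the highest was Apoe (1.72), and the lowest were Me1 (0.456) and Elovl6 (0.817). Median depth was 28262.5 UMIs in ZC1, 28263.5 in ZC2 and 34299 in ZC3 cells, and 24.1%, 25.8% and 34.9% were proliferating. Monocyte markers stood at 207 CPM in ZC1, 218 CPM in ZC2 and 98.4 CPM in ZC3 cells, and melanoma markers at 84.8, 55.8 and 56.6 CPM. The part of depth, cycling and these markers was not tested. Within clusters 1, 2 and 6 (ZC1 and ZC2) and 7 (ZC1, whose interval held 1) the SREBP sums were 1.11 to 1.28 times those of ZC3 cells of the same cluster.

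**Figure D5:**
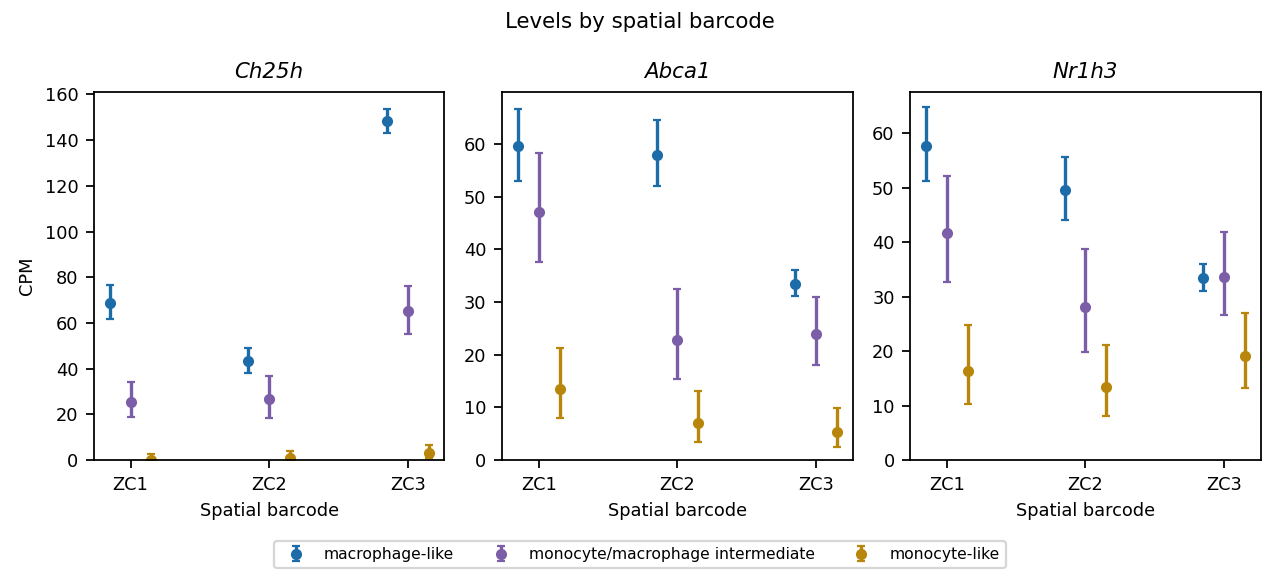
CPM (y axis, from 0) of Ch25h, Abca1 and Nr1h3 by spatial barcode (x axis) in macrophage-like, intermediate and monocyte-like cells, with 95% counting intervals. Ch25h in macrophage-like cells is 148 CPM in ZC3 against 68.9 in ZC1 and 43.2 in ZC2, whereas Abca1 and Nr1h3 in these cells are lower in ZC3.

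Among dendritic cells, migratory DC-like cells, marked by Ccr7 and Fscn1, were compared with cDC2-like cells, marked by Cd209a. The sterol arm was lower in migratory DC-like cells, at 752 CPM and 1183 CPM in cDC2-like cells, a ratio of 0.636 (0.573 to 0.704). Of the 24 members that could be compared 12 were lower and 0 higher, where 27.6% of 6022 genes were lower and 15.3% higher. Insig1 stood at 20.4 CPM in migratory DC-like against 70.7 CPM in cDC2-like cells (0.289, 0.149 to 0.516), Cyp51 at 50.2 and 108.2 CPM (0.464), Msmo1 at 45.5 and 96.9 CPM (0.470), Ebp at 59.6 and 125.8 CPM (0.474) and Fdps at 106.7 and 220.6 CPM (0.484). Dhcr7 (0.269, from 4 UMIs), Sqle (0.481) and Stard4 (0.483, from 10 UMIs, 70% of them in 1 cell) were the other lower SREBP targets. The lower members outside that list were Fasn (0.135, from 2 UMIs), Soat1 at 26.7 and 84.1 CPM (0.317), Scd2 at 22.0 and 57.3 CPM (0.384) and Srebf2 at 91.0 and 152.7 CPM (0.596).

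Idi1 was on the other side of 1, at 160.1 CPM in migratory DC-like against 120.9 CPM in cDC2-like cells, though short of the rule (1.32, 1.03 to 1.70). Of the further genes the highest were Npc2, which carries cholesterol out of lysosomes (1519 and 665 CPM, 2.28), and Pmvk, phosphomevalonate kinase (339 and 152.7 CPM, 2.22), and Lbr (0.117) was among the lowest. The LXR targets had only 26 and 92 UMIs, 40.8 and 65.0 CPM, a ratio of 0.627 (0.390 to 0.979), which became 1.07 with Leiden clusters in place of the gates. With 38 and 83 cells, single cells weigh: in migratory DC-like cells the largest share from 1 cell was 53.8% for Insig1 and 57.1% for Hmgcs1. Whether the same cell gave both was not examined. The median depths were close, at 13252.5 and 14933 UMIs, and monocyte markers differed, at 171 and 1909 CPM, whose part was not tested.

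In CD8 T-like cells the module was compared between cells with high and low summed checkpoint receptor genes (Pdcd1, Havcr2, Lag3, Tigit, Tnfrsf9 and Entpd1). The SREBP targets summed to 640.3 CPM in 70 checkpoint-high and 571 CPM in 156 checkpoint-low cells, a ratio of 1.12 (1.02 to 1.23), and the LXR targets to 29.9 and 46.1 CPM, 0.648 (0.423 to 0.973). Fdft1, which commits farnesyl diphosphate to sterols, was the 1 member of 28 compared that was higher, at 59.8 and 25.4 CPM (2.36, 1.61 to 3.47), with 25.0% of its UMIs in 1 cell of the high set. Mvd at 9.68 and 21.3 CPM (0.455, 0.211 to 0.902) and Abcg1 at 11.4 and 21.8 CPM (0.525, 0.259 to 0.998) were the 2 lower, where 5.94% of 7295 genes were higher and 8.21% lower. The counts behind these ratios were small, and 25 members stayed within the rule.

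The size of the sterol difference in CD8 T-like cells depended on how the sets were drawn. Leiden clusters of all kept cells were named CD8 T-like by their markers, and were not drawn from the 226 gated cells. The one led by Gzmb and Prf1 (132 cells) had 2.31 times the SREBP sum of the one led by Cd8b1 and Ms4a4b (141 cells). These sets thus differ from the gated ones in membership as well as in the split. Those clusters also differed in proliferation markers, 1386 and 94.1 CPM, and in monocyte markers, 608 and 2031 CPM, whose part in the result was not tested. Of the further genes, Apoe (81.8 and 256 CPM, 0.320) was among the lowest between checkpoint-high and -low cells, and Nceh1 (1.21) and Pmvk (1.02) were highest. In the checkpoint-low cells 22.3% of the Apoe UMIs came from 1 cell. Macrophage-like cells held Apoe at 6535 CPM, and the part of free RNA in its CD8 T-like values was not tested. Median depth was 12760 and 6188.5 UMIs, monocyte markers stood at 594 and 1254 CPM in checkpoint-high and -low cells, whose part was not tested, and 21 of the 226 cells lay within 25% of the gate.

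The tumour cells gave the widest differences of all, in a comparison with macrophage-like cells added after the data were examined. With 34 melanoma-like and 2001 macrophage-like cells, 22 members were higher and 4 lower, where 38.0% of 11197 genes were higher and 21.1% lower. All 4 lipogenic genes were higher: Scd1 at 41.5 and 1.03 CPM (40.3, 29.9 to 54.7), Scd2 at 349.7 and 43.9 CPM (7.97, 7.44 to 8.54), Fasn at 47.9 and 15.9 CPM (3.01) and Acaca at 25.3 and 9.68 CPM (2.61). Their sum reached 464 CPM (441 to 488), against 36.1 to 116.6 CPM in the other 11 classes. Of the SREBP targets 14 of 18 were higher and 0 lower, led by Sqle at 340.0 and 21.6 CPM (15.7, 14.5 to 17.0), Cyp51 (5.44), Lss (4.27) and Stard4 (4.01). The other higher ones were Fdft1 (3.11), Hsd17b7 (2.88), Fdps (2.64), Msmo1 (2.39), Nsdhl (2.36), Sc5d (2.29), Acat2 (2.22), Mvk (2.14), Insig1 (1.82) and Idi1 (1.65).

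The LXR targets were mixed in melanoma-like cells, with 2 lower, 1 higher and Mylip neither (0.709, 0.468 to 1.03). Abcg1 at 4.27 and 112.8 CPM (0.0379, 0.0207 to 0.0636), Nr1h3 at 2.13 and 42.4 CPM (0.0504), Ch25h at 1.83 and 102.3 CPM (0.0179) and Abca1 at 14.9 and 49.4 CPM (0.302) were the 4 lower members. Lpcat3 was higher, at 71.4 and 30.5 CPM (2.34, 2.04 to 2.68). The regulators Scap (2.73), Srebf2 (2.10) and Insig2 (1.80) were higher too. Of the further genes Me1 (159.2 and 4.88 CPM, 32.6) and Elovl6 (43.6 and 2.67 CPM, 16.4) were highest and Pltp, the phospholipid transfer protein (0.0382), and Lipa, the lysosomal acid lipase (0.128), lowest. Melanoma-like cells were deeper, with a median of 93308 UMIs, 52.9% of them were proliferating, and they held C1q genes at 516 CPM against 17232 CPM in macrophage-like cells. The part of these in the result was not tested.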

How the data were processed

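The authors' deposited matrix holds raw UMI counts of genes and of 3 spatial barcodes (ZC1 to ZC3), unfiltered, made with Cell Ranger 4.0.0 on mm10 per the submitters' processing notes. The sources used here do not give the counting options, so reads shared between paralogs such as Scd1 and Scd2 could not be checked. From these counts, cells were filtered as stated, and gates per 10000 UMIs were set after looking at marker distributions. Counts were summed over cells, with exact Poisson intervals for levels and exact conditional binomial intervals for ratios (95%). Comparisons were limited to genes that had 30 or more UMIs in the pair of sets together and 3 expected in the smaller. Values are printed for members past 1.5-fold, with ranges for the rest, and for the 2 highest and 2 lowest of 26 further genes (some of these are not reported here); classes, clusters and other members named beside them were chosen after their values were seen. Members and lists were chosen with earlier results of these data known. The code was tested on simulated data. Leiden clusters (21) came from scanpy 1.11.5 on 30 components, 15 neighbours and resolution 1. Alternatives changed filters, gates, weighting of cells, free RNA and classes. Computations used pandas 2.3.3, scipy 1.17.1, numpy 2.4.6 and Python 3.11.15. Promoters are RefSeq GRCm38.p6. The matrix holds 117528298 gene UMIs.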

Additional observations from a re-analysis of the deposited data

How the results depend on the processing

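Over 12 sums and 78 alternatives, 65 values stayed within the counting interval of the reported value, 12 moved beyond it and 1 reversed. These counts follow the width of the interval. The checkpoint LXR ratio of 0.648 counted as unmoved at 0.487 with Leiden clusters, because its interval is wide. A filter of at least 500 UMIs added no CD8 T-like, migratory DC-like or cDC2-like cells, so those ratios could not move under it. Weighting cells alike gave SREBP ratios of 0.600 for macrophage-like over monocyte-like, 1.43 for checkpoint-high over -low and 0.487 for migratory DC-like over cDC2-like cells. Gates 2 times stricter gave 1.02 (SREBP) and 0.743 (LXR) for proliferating over other macrophage-like cells, 1.251 (SREBP) for checkpoint-high over -low cells, and 1.14 (SREBP) and 1.17 (LXR) for ZC2 over ZC3. Leaving out proliferating cells gave 0.467 (SREBP) for migratory DC-like over cDC2-like cells and 1.09 (LXR) for ZC2 over ZC3. Leiden clusters gave 0.719 (SREBP) for macrophage-like over monocyte-like and 2.31 (SREBP) for checkpoint-high over -low cells, and the LXR ratio of migratory DC-like over cDC2-like cells reversed to 1.07. The cause was not tested. The alternative with at least 5000 UMIs a cell was chosen after seeing the data and moved no sum. The barcode rule first planned, 10 counts and 2 times the next, left 3 ZC1 and 6 ZC2 macrophage-like cells against 1278 ZC3 cells. It therefore gave no value, and the relative rule is reported. No paired analysis was possible because there is 1 library. Depth limits the LXR targets, with 26 to 123 UMIs in each dendritic and T cell class.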

Other observations

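Outside the macrophages, values by spatial barcode were not part of a comparison. The summed SREBP targets stood at 680.0 CPM (637 to 726) in 103 ZC1, 911 CPM (862 to 962) in 104 ZC2 and 780.1 CPM (739 to 823) in 134 ZC3 monocyte-like cells. In CD8 T-like cells they stood at 440.1 CPM (382 to 505) in 60 ZC1, 681 CPM (623 to 744) in 49 ZC2 and 482 CPM (430.0 to 538) in 40 ZC3 cells. ZC2 was the highest in both, and ZC2 intermediate cells, at 645 CPM (603 to 690.2), overlapped ZC3 at 619 CPM (588 to 652), both above ZC1 at 512 CPM (479.5 to 546). In cDC2-like cells ZC3 was the highest instead, at 1258 CPM (1134 to 1392) in 19 cells. There 31 ZC2 cells stood at 1104 CPM (1017 to 1196), which overlapped ZC3, and 18 ZC1 cells at 1014 CPM (911 to 1127). Median depth of the CD8 T-like cells was 5590.5 UMIs in ZC1, 11106 in ZC2 and 9498.5 in ZC3, and 5.0%, 14.3% and 22.5% of them were proliferating. The part of depth and cycling in these values was not tested.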
